A study of Mus musculus with 13 samples.

Results

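The livers described here are those of the 5 wild-type mice of a study of SIRT1, a deacetylase that uses NAD+. All were male C57BL/6 mice with unaltered Sirt1, and all had eaten a high-fat diet of western type for 5 months before the liver was taken. They were chosen by their labels alone, WT 1 to WT 5, and make up 5 of the 13 arrays of the series. The remaining arrays come from mice on the same diet whose SIRT1 carries another residue at T522, alanine in the 5 TAKI mice and glutamate in the 3 TEKI mice. Only the spread among the TAKI livers is used below. No liver from a mouse on another diet was analysed here, so no value in the text measures an effect of the diet.

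The liver makes most plasma proteins, turns fatty acids into ketone bodies or stores them as triglyceride, disposes of nitrogen as urea, makes bile acids and detoxifies foreign compounds. Hepatocytes contribute most of its RNA, and Kupffer cells (the resident macrophages), endothelial cells, stellate cells and cholangiocytes the rest. In a fatty liver, macrophages that take up lipid express a programme with Trem2, Gpnmb and Spp1. Many liver genes follow the time of day through the circadian clock, others follow the pulses of growth hormone that differ between male and female mice, and acute phase genes respond to cytokines such as IL-6.

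Each mouse gave 1 RNA sample and 1 single-colour Agilent array with probes of 60 bases. After control spots were left out, the array held 41174 probes for 27962 gene names. A level below is the log2 processed signal of the brightest probe of a gene minus the 75th percentile of that array, so 0 is the brightness of that percentile and 1 unit is a doubling of signal. Brightness also depends on the probe, so the order of genes by level is an order of signals and not of transcript amounts. Between 59.8% and 68.2% of probes stood well above background on the 5 arrays, and the median coefficient of variation over repeated spots was 3.54% to 5.77%. WT 1, WT 2 and WT 4 shared a slide, WT 3 came from a slide scanned on another day, and WT 5 came from a further slide. For the last pair of livers, the animal and the slide cannot be told apart.

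The tissue on the label was checked first. All 12 hepatocyte markers stood well above background on all 5 arrays, and the 10 of them that were not saturated had a median SD over the livers of 0.23. Sirt1 itself gave levels of 0.18, 0.45, 0.43, 0.39 and 0.49 in WT 1 to WT 5. WT 1 was the lowest of the 5. A separate Sirt1 probe, with a mean of -0.95, had the same SD of 0.12, but its lowest liver was WT 3, at -1.12 against -1.05 in WT 1. The livers did not differ in Sirt1 beyond the disagreement of its probes (limma's moderated F test, Benjamini-Hochberg adjusted p = 0.327).

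Of the 27962 gene names, 16387 (58.6%) stood well above background on all 5 arrays, 7337 (26.2%) on none and 4238 (15.2%) on some. The 25 brightest carried 9.87% ± 0.32 (SD, n = 5) of the signal and the brightest 1000 carried 70.7% ± 1.17. Plasma proteins led. The probe of Apoc1, an apolipoprotein of triglyceride-rich particles, read 9.94, 9.70, 9.99, 9.97 and 10.27 in WT 1 to WT 5. Alb, which encodes albumin, read 9.63, 9.46, 9.96, 9.71 and 10.001. Both probes were saturated on all 5 arrays, so neither an order of the livers nor an order of the 2 genes can be read from these values. Among the 25 were also the complement component C3, the haem and haemoglobin scavengers Ambp and Hp, the fibrinogen chain Fgb, the coagulation factor F2, the apolipoproteins Apoe and Apoa2, the retinol carrier Rbp4, the protease inhibitor Serpina1d and the fetuin Ahsg. Intracellular members were Fabp1, which binds fatty acids, the detoxifying enzymes Gstm1, Mgst1, Gpx1 and Cyp2d26, and the mitochondrial proteins Cox6a1 and Chchd10. Mup1 and Mup3, major urinary proteins that carry pheromones, were there too. Mup genes and Serpina1 genes are near-identical copies, and their probes may read several of them.

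**Figure D1:**
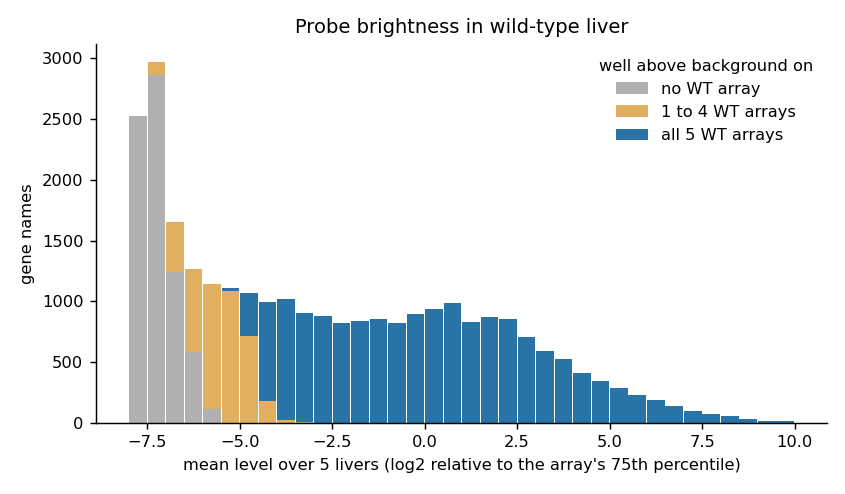
Number of gene names by mean level (log2 signal relative to the array's 75th percentile) in the 5 wild-type livers, by the number of arrays on which the gene stood well above background. The 7337 names above background on no array have a median level of -7.37, and the 16387 above background on all 5 have a median near 0.

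The probe of 8 genes was saturated on all 5 arrays: Apoc1, Lars2, Alb, Pigt, C3, Ptprz1, Apoe and Hp. Their SDs of 0.15 to 0.23 are therefore spreads at the scanner's upper limit after scaling. Ptprz1 encodes a receptor tyrosine phosphatase of glia and stood out in a liver at 9.52, 9.40, 9.84, 9.65 and 9.87. Its 3 other probes had mean levels of -5.92, -6.64 and -7.84, and the first of these stood above background on 1 array and the others on none. Pigt, a subunit of the enzyme that attaches GPI anchors, had a mean of 9.73 for its brightest probe and -1.69 for its other probe. C3 had a mean of 9.70 for its brightest probe and 0.54 for its other probe, which stood above background on all 5 arrays. Lars2, the mitochondrial leucyl-tRNA synthetase, had 1 probe, at 9.80. For these genes the level is that of 1 probe, and why the probes of a gene disagree was not tested. Below are the first 30 bases of these probes beside those of Alb and Apoc1, so that the bright sequences can be looked up. The array header places the whole probes in mouse build mm7 at chr6:22942347-22942406 for Ptprz1, chr17:38065479-38065538 for Pigt, chr9:123178230-123178289 for Lars2, chr5:90443687-90443746 for Alb and chr7:17371881-17371940 for Apoc1.
Ptprz1: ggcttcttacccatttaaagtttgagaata
Pigt: ccccctcgatgctcttagctgagtgtcccg
Lars2: acgtcgctttttgatccttcgatgtcggct
Alb: gctctgacagttgatgaaacatatgtcccc
Apoc1: gggccacctcgaagcatcaaggacatccac

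The genes not above background included receptors of the sensory epithelia. Of 911 olfactory receptor genes, 436 (47.9%) were above background on no array and 203 (22.3%) on all 5. Of 132 vomeronasal receptors, 79 were on none and 21 on all 5. For 16 taste receptors the counts were 10 and 4. The shares on all 5 arrays lay below the 58.6% of all names in each family, and the measured olfactory receptors had a median level of -3.45. WT 5 was the highest liver for 146 of the 203 measured olfactory receptors, against 36.9% of all measured genes, and WT 3 the lowest for 123, against 22.1%. With arrays scaled on their median WT 3 was the lowest for 74 (36.5%), against 6.98% of all genes under that scaling. After quantile normalization it was the lowest for 81 (39.9%), against 17.6% of all genes. Named genes above background on no array included the satiety hormone Lep (mean level -6.79), the GABA-synthesising enzymes Gad1 (-6.69) and Gad2 (-6.02), the neurofilament Nefl (-7.29), myoglobin, Mb (-7.42), the calcium buffer Pvalb (-7.64), lactase, Lct (-6.95), the mucin Muc2 (-7.36) and neutrophil elastase, Elane (-6.46). Genes with a place in liver physiology were also among them. Npas2, a clock transcription factor, was at -6.01, and Slc7a11, the cystine importer that NRF2 induces, at -7.36. H2-Ea, an MHC class II chain, was at -7.45. Not well above background is a statement about these probes, and gives no more than an upper bound on the transcript.

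Markers of other liver cell types were then counted, beside the 58.6% of all gene names above background on all 5 arrays. Kupffer cell markers stood above background on all 5 arrays for 18 of 18, endothelial markers for 18 of 18, stellate cell markers for 17 of 18, lymphocyte markers for 18 of 20, cholangiocyte markers for 9 of 14 and neutrophil markers for 8 of 12. The shares for cholangiocytes (64.3%) and neutrophils (66.7%) lay near that of all names. Lymphocyte and neutrophil markers were dim, with median levels of -2.99 and -3.61. In bulk liver, fewer cells of a type and less RNA per cell cannot be told apart. Of markers for tissues that dissection may carry over, 10 of 19 pancreatic acinar, 7 of 9 adipocyte and 5 of 13 skeletal muscle genes were above background on all 5 arrays, and the acinar share of 52.6% was also near that of all names. The adipocyte hormone Adipoq was at -2.89, -5.24, -5.14, -5.47 and -4.22, highest in WT 1.

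The next question was how far 5 mice of the same genotype, strain, sex and diet differed. For the 16364 measured genes (above background on all 5 arrays and on none saturated), the median SD over the livers was 0.22, and the central 90% of genes lay between 0.08 and 0.66. The SD was at least 1 for 160 genes, which is 0.978% of those measured, and below 0.1 for 1530 (9.35%). Dim genes varied more, with a median SD of 0.36 in the dimmest 4091 genes and of 0.18 in the brightest 4091. Repeated spots of the same array gave the spread of printing and scanning. For 177 probes printed on 10 spots, the spot SD had a median of 0.07 and the SD over livers a median of 0.25. In 153 (86.4%) the SD over livers was the larger. That SD is of means over the 10 spots, while the spot SD is of single spots. With 1 array per mouse, it also holds differences of labelling, hybridisation and slide, which repeated spots do not measure.

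WT 5 set much of this spread. Among the 160 genes with an SD of at least 1, the liver farthest from the rest was WT 5 on the high side in 57 (35.6%) and WT 5 on the low side in 55 (34.4%). WT 1 came next, high in 20 and low in 14. WT 4 was seldom extreme, and was the lowest of the 5 for 8.29% of all measured genes. Over all measured genes, WT 5 was the farthest on the high side in 23.0% and on the low side in 17.5%. Without WT 5, 63 genes had an SD of at least 1, and without WT 4, 251. WT 5 was alone on its slide among these mice, and the part of the slide in its distance was not tested. On the slide of WT 1, WT 2 and WT 4, where the slide is shared, 104 genes had an SD of at least 1.

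The largest spread of all belonged to a gene of steroid metabolism. Hsd3b5, a hydroxysteroid dehydrogenase of the male mouse liver, was at -0.16, -5.50, 0.11, -4.26 and 3.05 (SD 3.49), low in WT 2 and WT 4, middling in WT 1 and WT 3 and high in WT 5. Its relative Hsd3b4 ran in nearly the same order at 0.13, -2.47, 0.15, -2.12 and 3.39, and since the Hsd3b genes are close copies, the probes may share transcripts. The TAKI livers spread about as widely in both, with SDs of 3.47 and 2.48. Slco1a1, an organic anion importer of the hepatocyte, was at 0.48, -2.09, 0.58, -0.26 and 2.32. WT 2 was again lowest and WT 5 highest, also in a separate probe with an SD of 1.88, and the livers differed beyond the probes (limma's moderated F test, adjusted p = 0.000145).

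Hsd3b5 and Slco1a1 belonged to a list of 30 genes known to differ between male and female mouse liver. For 22 of them measured here, the median SD was 0.69, against 0.22 for all genes, and 4 had an SD of at least 1. WT 5 was the highest liver for 18 of the 22, against 36.9% of all measured genes, and WT 2 the lowest for 11, against 25.4%. Under other scalings of the arrays WT 5 stayed highest for 13 to 17 of the 22. Acot3, a peroxisomal thioesterase, was at 0.45, -0.24, 0.69, 0.65 and 2.67. Cyp7b1, which hydroxylates oxysterols and is higher in males, was at 4.58, 3.69, 4.71, 4.20 and 5.78. Socs2, a feedback inhibitor that growth hormone induces, was at -0.77, -0.30, -0.46, -0.32 and 1.86. In each of them WT 5 was the highest liver. The female-biased Cyp2b9 ran otherwise, at 3.27, 5.31, 3.93, 4.67 and 3.77, highest in WT 2 and WT 4 where Hsd3b5 was lowest, and its livers differed beyond its probes (limma's F test, adjusted p = 0.000431). Cyp2b13, its close copy, had the same order at 1.11, 2.97, 1.79, 2.44 and 1.62. Cyp2a4, also higher in females, did not, at 6.17, 7.33, 7.84, 7.46 and 8.42, with the highest value in WT 5. Outside this list, the major urinary protein gene Mup5 was highest in WT 5 and lowest in WT 2 and WT 4, at 8.03, 6.77, 7.86, 6.77 and 8.35.

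Acute phase genes set WT 1 apart. Saa3, a serum amyloid A made by macrophages and other cells, was at 8.66 in WT 1 and between 3.34 and 4.62 in the rest (SD 2.08, and 0.55 without WT 1). Lcn2, the iron-siderophore binder lipocalin 2, ran from 5.45 in WT 1 through 2.52, 1.45 and 2.25 to -1.01 in WT 5. Hepatic acute phase proteins gave the same picture. Saa1, at 9.62, 6.94, 6.58, 6.85 and 5.76, was saturated on the array of WT 1, so its lead there is a lower bound, and the near-identical Saa2 was at 9.52, 7.41, 6.99, 7.33 and 6.10 and saturated on the same array. WT 1 was the highest and WT 5 the lowest liver for both.

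Of the 19 genes of that list (acute phase proteins and metallothioneins), 16 were measured without saturation, with a median SD of 0.82. WT 1 was the highest liver for 14 of the 16, against 16.7% of all measured genes, and WT 5 the lowest for 13, against 25.8%. The median member lay 1.17 above its mean over the livers in WT 1 and 0.79 below it in WT 5. WT 1 was the highest for 14 of the 16 under each of 3 other scalings too. The pentraxin Apcs was at 4.54, 1.87, 1.87, 2.41 and 1.37. Serpina3n, a protease inhibitor, was at 6.91, 4.30, 4.28, 4.09 and 3.94. Socs3, the feedback inhibitor of IL-6 signalling, was at 3.24, 1.71, 1.13, 2.12 and 0.97. WT 1 exceeded every other liver by more than 1 log2 unit in these 3 genes. Mt1, a metal-binding metallothionein, was at 7.70, 6.08, 5.68, 6.37 and 5.44, and its livers differed beyond its probes (limma's F test, adjusted p = 0.00117). Of the 4 members with several probes, 2 passed that test, against 23.8% of all 5398 genes tested. Hamp, which encodes hepcidin, was an exception, at 5.42, 5.46, 4.15, 3.69 and 5.99, and Cp, ceruloplasmin, varied little, at 6.95, 7.05, 6.91, 7.10 and 6.58. Hamp2, a hepcidin copy, was lowest in WT 1, at -0.48 against 1.89 to 3.41 in the rest.

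Other genes shared the WT 1 pattern. The fibrinogen chain Fga was at 7.09, 5.72, 5.46, 5.52 and 5.61, and Itih4, another secreted plasma protein, at 7.27, 5.15, 4.85, 5.02 and 5.13. Both were high in WT 1 alone. The secreted plasma proteins as a list had a median SD of 0.22 over 25 measured members, against 0.18 for the brightest 4091 genes. Their lowest liver was most often WT 2 (15 of 25, against 25.4% of all genes, but 2 of 25 after quantile normalization). The neutrophil gene Elane was above background on no array. Of the 8 measured neutrophil markers, WT 1 was the highest liver for 4 and WT 4 for 4, against 16.7% and 14.5% of all genes. Their part in the high values of WT 1 was not tested.

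Macrophage genes divided the livers in another way. Marco, a scavenger receptor of macrophages, was at 5.63 in WT 1, 2.82 in WT 3 and between 0.90 and 1.88 in the rest (SD 1.93, and 0.88 without WT 1). Of 18 Kupffer cell and macrophage markers, WT 1 was the highest liver for 9 and WT 3 for 7, against 16.7% and 15.9% of all genes. With arrays scaled on their median, these counts were 6 (33.3%) and 11 (61.1%), against 9.42% and 55.8% of all genes under that scaling. Clec4f, a lectin of Kupffer cells, was nevertheless even, at 4.21, 4.15, 4.44, 4.00 and 4.29. Timd4, which embryo-derived Kupffer cells carry, was at -0.02, -2.36, -1.61, -1.46 and -0.83, highest in WT 1. Vsig4, a complement receptor, was at 2.35, 1.22, 2.04, 1.00 and 1.53, highest in WT 1 and WT 3.

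Markers of lipid-associated macrophages were instead low in WT 5. It was the lowest liver for 13 of 15 measured members, against 25.8% of all genes, and for 14 of the 15 under each of 3 other scalings. The median member lay 1.22 below its mean there, and 0.78 below it with normexp background correction. Spp1, osteopontin, which cholangiocytes also make, was at 4.51, 5.69, 4.41, 4.83 and 2.94. Trem2, the lipid receptor of these cells, was at 2.05, 2.80, 3.40, 2.43 and 0.97, and its livers differed beyond its probes (limma's F test, adjusted p = 7.29e-05). Gpnmb, a lysosomal glycoprotein, was at 0.00, 0.42, 0.77, 0.36 and -1.47. In each of these, WT 5 was lowest by at least 1 log2 unit. Cd63, a tetraspanin of late endosomes, gave the sharpest gap, at 3.78, 4.00, 3.98, 3.79 and 1.72, and its SD of 0.97 was 0.12 without WT 5. Ctsb, the protease cathepsin B, counted among the members and hardly varied (SD 0.07). WT 5 was also the lowest liver for 9 of the 18 Kupffer cell and macrophage markers, whose part in these values was not tested.

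WT 5 was low in further lists that fatty, dividing or stimulated liver is known for. Among 20 lipid droplet and PPARgamma target genes it was the lowest liver for 11, against 25.8% of all genes. Plin2, the main coat protein of hepatocyte lipid droplets and a member of both lists, was at 8.77, 8.36, 8.44, 8.61 and 7.79. Cidea, which enlarges droplets, was at 7.92, 7.10, 8.39, 8.30 and 7.16, low in WT 2 and WT 5 alike. Anxa2, a membrane-binding annexin, was at 3.21, 3.75, 3.38, 3.35 and 1.40, lowest in WT 5. Fabp4, a fatty acid carrier of adipocytes and macrophages, was at 4.44, 4.73, 5.17, 5.11 and 3.04 in the brightest of its 3 probes. It ranked among the 10 clearest differences between livers (limma's F test, adjusted p = 1.02e-06, and 0.00828 without WT 5). Smpd3, a neutral sphingomyelinase, was at 2.39, 2.39, 2.58, 2.43 and -0.045 in the brightest of 3 probes (adjusted p = 1.46e-05 by limma's F test). That difference lay in WT 5 alone, and without it the adjusted p was 0.421.

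Among 22 immediate early genes, which answer stimuli within minutes, WT 5 was the lowest for 17, against 25.8% of all genes. Atf3 was at 0.84, 0.60, 0.74, 1.66 and -1.28, and Fos at -2.46, -2.94, -3.34, -2.42 and -4.72. Both encode AP-1 type transcription factors, and WT 5 was lowest in both. Among 20 cell cycle genes, WT 2 was the highest for 13, against 15.9% of all genes, and WT 5 the lowest for 14 (12 to 14 under other scalings). Mki67, the proliferation marker Ki-67, was at -1.42, 0.24, -0.51, -0.73 and -1.95, highest in WT 2 and lowest in WT 5. Its livers differed beyond its probes (limma's F test, adjusted p = 0.000187). Cdkn1a, which encodes the inhibitor p21, was at 1.23, 0.95, 1.07, 1.59 and -0.79, lowest in WT 5 as well. Among 26 genes that misfolded protein or amino acid shortage induces, WT 1 was the highest liver for 15 and WT 4 for 10, against 16.7% and 14.5% of all genes. Under each of 3 other scalings WT 1 was the highest for 17. With arrays scaled on their median WT 4 was the highest for 6, against 4.96% of all genes under that scaling. WT 5 was then the lowest for 23, against 36.7% of all genes, and for 11 without that scaling. Asns, asparagine synthetase, was at 1.83, 1.09, 0.43, 1.58 and -1.51. Calr, the chaperone calreticulin, was at 5.39, 4.41, 4.33, 4.49 and 4.31, high in WT 1 alone.

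**Figure D2:**
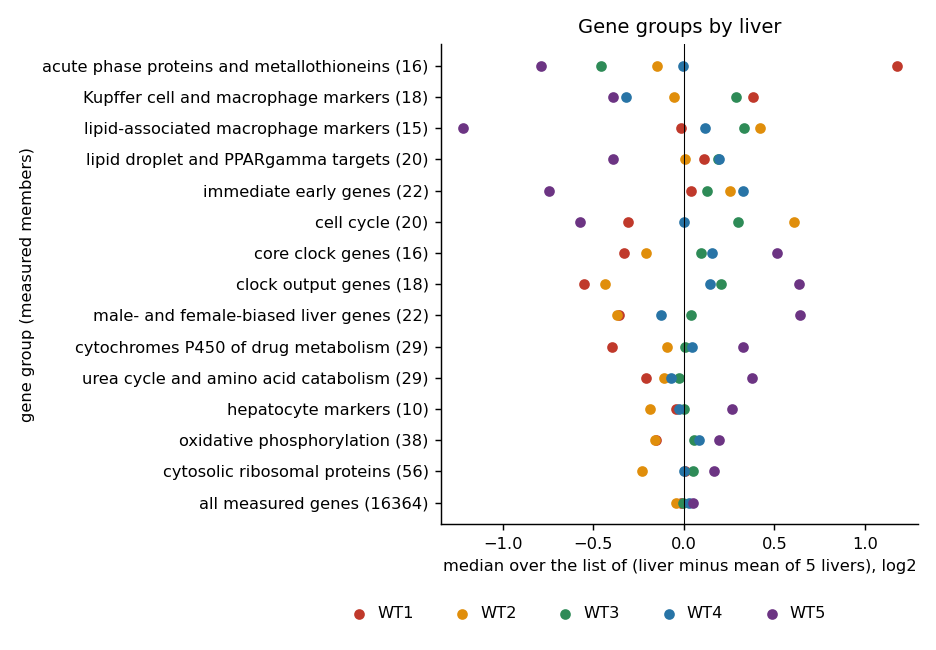
Median deviation of the measured members of each gene list from their mean over the 5 livers (log2 units), by liver. Acute phase genes lie at 1.17 in WT 1 and -0.79 in WT 5, and markers of lipid-associated macrophages at -1.22 in WT 5.

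Clock genes also varied between the livers. Ciart, a repressor of the clock, was at -4.19, -3.22, -0.63, -0.44 and 0.11 (SD 1.91), and Usp2, a rhythmic ubiquitin protease, at -2.35, -1.01, 1.49, 0.76 and 2.35. Dbp, a transcription factor with one of the strongest daily rhythms in liver, was at 4.92, 5.65, 6.75, 6.34 and 7.22. Per1, a period gene, was at -1.40, -0.09, 1.73, 1.49 and 1.26. WT 1 was the lowest and WT 2 the second lowest liver for all 4. Arntl, the activator BMAL1 whose rhythm runs opposite to theirs, was at 0.04, -0.45, -1.50, -0.95 and -2.58, the reverse of the order of Dbp and Usp2. Tef, a relative of Dbp with 4 probes, was at 2.24, 2.60, 3.19, 3.13 and 3.89, and its livers differed beyond its probes (limma's F test, adjusted p = 6.41e-05).

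Of the 16 measured core clock genes, WT 1 was the lowest liver for 9 and WT 5 the highest for 9, against 18.4% and 36.9% of all measured genes. An SD of at least 1 was found for 3, against 0.978% of all. Of the 7 with several probes, 4 passed the test against the probes, against 23.8% of all tested, among them Cry2 (adjusted p = 0.0331 by limma's F test), while the livers were not separable from the probes for Per2 (adjusted p = 0.242) and Clock (0.067). Clock output genes varied more, with a median SD of 0.66 over 18 members. WT 1 was lowest for 13 of these and WT 2 for the other 5, against 18.4% and 25.4% of all genes, and all 6 with several probes passed the test. Under other scalings WT 1 was the lowest for 10 to 13. Rgs16, a regulator of G protein signalling, was at 1.66, 2.97, 4.8, 4.21 and 3.49, and Noct, the deadenylase-related nocturnin, at -1.33, 0.27, 1.17, 0.88 and 1.12. In both, WT 1 was the lowest and WT 3 the highest liver. Alas1, the first enzyme of haem synthesis, was at 6.71, 6.22, 7.45, 7.54 and 8.52 (adjusted p = 0.000198 by limma's F test). Cyp7a1, the rate-limiting enzyme of bile acid synthesis, was at 1.62, 3.1, 2.86, 2.06 and 3.60 (adjusted p = 0.00219 by limma's F test). Lpin1, a phosphatidate phosphatase and coactivator whose transcript is rhythmic, gave the smallest p of all genes, with 0.91, 0.70, 2.35, 2.51 and 2.64 in the brightest of 4 probes (adjusted p = 1.54e-09). WT 1 and WT 2 were low and the other three livers high in it. The labels used here give no hour of collection.

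**Figure D3:**
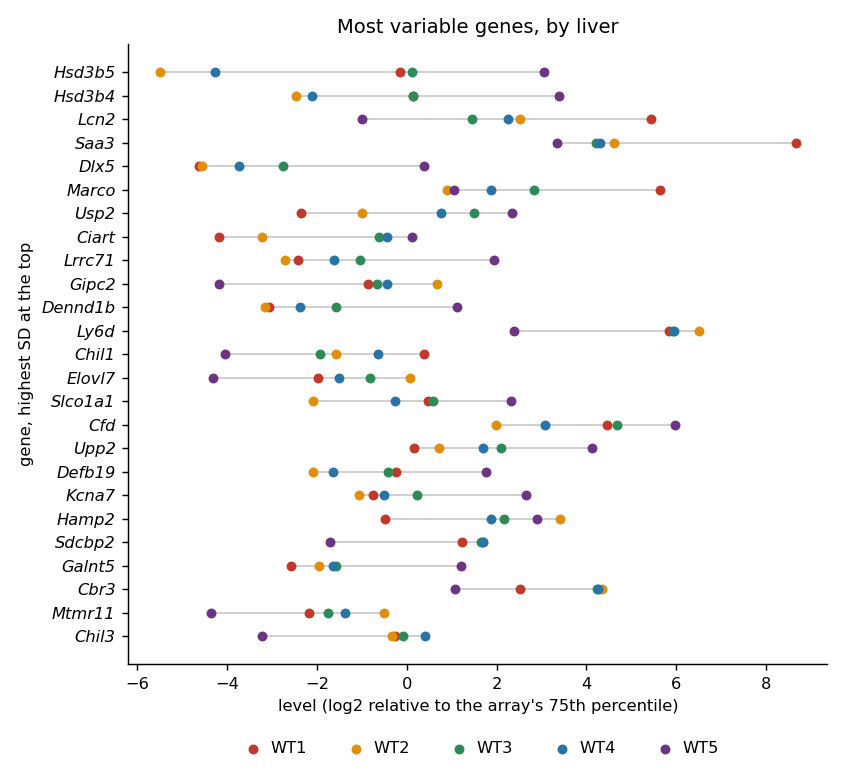
Levels of the 25 genes with the highest SD in each of the 5 wild-type livers, each point being 1 liver and the axis the log2 signal relative to the array's 75th percentile. WT 5 stands at an end for most of them, WT 1 is high for Saa3, Lcn2 and Marco, and WT 1 and WT 2 are low for Ciart and Usp2.

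The clock acts through short DNA elements, and since several clock genes ordered the livers alike or in reverse, the promoters of the list were searched. In the 250 bases before the start given by RefSeq (build GRCm38), on both strands, the E-box CACGTG, which CLOCK and BMAL1 bind, occurred for 5 of 16 matched clock genes and for 6.86% of all 27025 genes. Counted by promoter, this was 6 of 21 and 6.02% of 32851. The D-box TTATGTAA, read by Dbp, Tef and Nfil3, occurred for 1 of 16 clock genes and for 0.977% of all genes (0.819% of promoters). A match describes the letters alone. The windows with the element in capitals follow, with 20 bases to each side. The promoters lie at chr3:95882179-95882478 for Ciart (minus strand), chr11:69098699-69098998 for Per1 (plus), chr15:81802423-81802722 and chr15:81811164-81811463 for the first and second Tef start (plus), chr10:85185005-85185304 for Cry1 (minus), chr6:145865371-145865670 for Bhlhe41 (minus) and chr4:151044616-151044915 for Per3 (minus).
Ciart: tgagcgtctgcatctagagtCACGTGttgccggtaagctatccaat
Per1: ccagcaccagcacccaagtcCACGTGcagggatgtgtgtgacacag
Tef: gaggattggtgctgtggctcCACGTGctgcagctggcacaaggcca
Tef, second start: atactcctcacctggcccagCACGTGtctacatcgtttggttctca
Cry1: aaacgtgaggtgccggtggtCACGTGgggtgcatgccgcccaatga
Bhlhe41: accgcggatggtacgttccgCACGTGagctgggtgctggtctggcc
Per3: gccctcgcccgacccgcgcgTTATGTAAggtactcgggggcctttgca

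Lists of metabolic enzymes had median SDs on both sides of the 0.22 of all genes, but their members were brighter than most genes. Median levels were 6.01 for fatty acid oxidation, 1.42 for cholesterol synthesis, 6.00 for urea cycle and amino acid and 3.38 for fatty acid synthesis genes. Among the brightest 4091 genes, and among the 4091 next to them in level, the median SD was 0.18. Fatty acid oxidation and ketogenesis genes had a median SD of 0.19 over 28 members, cholesterol synthesis genes of 0.24 over 25, urea cycle and amino acid genes of 0.29 over 29 and fatty acid synthesis genes of 0.31 over 21. Sqle, squalene epoxidase, a control point of cholesterol synthesis, stood out from its list at -1.29, -2.74, -2.89, -2.20 and -4.17. WT 1 was the highest and WT 5 the lowest liver. Scd1, the desaturase that makes oleate, was by contrast steady (SD 0.09). For cytochromes P450 of drug metabolism, the median SD was 0.45 over 29 members, WT 1 was the lowest liver for 16, against 18.4% of all genes, and WT 5 the highest for 19, against 36.9%. With arrays scaled on their median WT 5 was the highest for 12 of the 29 (41.4%), against 18.2% of all genes under that scaling. Of 15 with several probes, 14 passed the test against the probes, beside 23.8% of all genes.

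Housekeeping groups had the lowest median SDs of the lists, but bright genes varied less in general. The brightest 4091 genes had a median SD of 0.18. Median levels were 6.32 for oxidative phosphorylation, 6.81 for cytosolic ribosomal proteins and 4.39 for reference genes. Oxidative phosphorylation genes had a median SD of 0.18 over 38 members, with none above 0.31, and cytosolic ribosomal protein genes of 0.16 over 56, with none above 0.33. In them WT 2 was the lowest liver for 21 of 38 and 54 of 56, against 25.4% of all genes. For the ribosomal genes this count was 50 with arrays scaled on their median, 49 with normexp background correction and 25 after quantile normalization, and for oxidative phosphorylation it was 19, 18 and 6. The highest liver depended on the scaling. With arrays scaled on their median, WT 3 became the highest for 53 of the 56 ribosomal genes, and the median of all measured genes itself moved by 0.23 in WT 3. Reference genes of expression assays had a median SD of 0.18 over 21 members. The widest were Tubb5, a beta-tubulin, at 4.37, 4.38, 4.36, 4.32 and 3.37 (SD 0.44), and Tfrc, the transferrin receptor, at -0.73, -0.33, -0.47, 0.33 and 0.13 (SD 0.43).

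Single probes with almost no spread are a different matter. H3c14, a histone H3 gene, had the lowest SD of all, 0.017, at 5.06, 5.06, 5.08, 5.05 and 5.04. Cd81, a tetraspanin, was at 6.99, 7.00, 7.04, 7.04 and 6.99. Fth1, the ferritin heavy chain, was at 9.04, 9.02, 9.0, 9.07 and 9.05. The SDs of H3c14, Cd81 and Fth1 lay below the median SD of 0.07 between repeated spots. In the TAKI livers their SDs were larger, at 0.055, 0.143 and 0.105. Picked as the lowest among 16364 genes, the wild-type SDs do not show that these genes are constant. The splicing factor Slu7 was among the 15 steadiest genes too, but its other probe had an SD of 0.16. For Ipp and Otud4 the other probes also had larger SDs, of 0.16 to 0.23. These other probes were dimmer, at mean levels of -1.44 for Slu7, -2.24 for Ipp and -2.80 and -3.19 for Otud4. Dim genes varied more, so the comparison cannot tell whether the steadiness belonged to the gene or to 1 probe.

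Whether livers differed beyond the disagreement between probes was tested for the 5398 genes with at least 2 measured probes. The livers differed in 1285 of them (23.8%, limma's F test, Benjamini-Hochberg adjusted p under 0.05). The count was 430 without WT 5 and 856 without WT 1. In this test the error is the disagreement of probes on the same arrays, with 1 array per liver. Differences of labelling, hybridisation and slide that the probes of a gene share therefore also count as differences between livers. Beside the genes above, the 10 smallest p-values held Hbb-bt, a beta-globin, at 6.64, 6.24, 7.43, 7.02 and 7.53 (adjusted p = 9.59e-09). Hba-a1, an alpha-globin of blood, was at 5.8, 5.58, 6.76, 6.35 and 6.87, in the same order, and the globin copies share sequence. WT 5 was the highest liver for 3 of the 4 measured erythroid markers, against 36.9% of all genes. The red cell membrane gene Epb42 was above background on no array. Coq10b, a coenzyme Q carrier, was at 0.79, 1.29, 1.98, 1.70 and 2.98 (adjusted p = 7.03e-07), lowest in WT 1 and highest in WT 5. Timm17b, a subunit of the mitochondrial import channel, was at 4.87, 4.38, 4.93, 4.76 and 5.22 (adjusted p = 1.02e-06), a narrow range with WT 2 lowest. Egfr, the receptor for EGF, was at 3.64, 2.68, 3.15, 2.95 and 3.83, and Malat1, a nuclear long non-coding RNA, at 1.33, 2.72, 1.22, 2.73 and 2.36 (both adjusted p = 1.46e-05). Btg2, an antiproliferative gene, was lowest in WT 5, at 1.23, 1.42, 0.97, 1.95 and 0.15 (adjusted p = 1.46e-05). Clec2h, a C-type lectin gene, was highest there, at -0.51, -1.46, 0.09, -0.58 and 1.97 (adjusted p = 3.72e-05). Values of these genes are those of the brightest probe. A separate test asked whether any gene varied more than genes of like level. It called 0 of 16364 genes by limma at an adjusted p under 0.05, and 897 had an unadjusted p under 0.05. The count was 64 with arrays scaled on their median and 56 on the slide of WT 1, WT 2 and WT 4. Hsd3b5 had 14.4 times the SD of genes of like level, and still only an adjusted p of 0.622 in limma's test of spread (unadjusted p = 9.13e-05). With 5 livers the test can call few genes, so a count of 0 does not show that no gene varied unusually.

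Other probes of a gene gave a further check on the most variable genes. Of the 160, 25 had other measured probes, 32 in all, and in 17 (53.1%) of these the highest liver was the same and in 20 (62.5%) the lowest. Over all genes with several probes these shares were 43.2% and 41.6%. The median SD of the 25 genes was 1.12 in the brightest probe and 0.76 in the others.

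The TAKI livers, which took no part in choosing the variable genes, varied in many of the same ones. Of the 100 genes with the highest SD in wild-type livers, 97 were measured in TAKI, with a median SD there of 0.92, against 0.20 for all genes. Of them, 68 (70.1%) fell in the upper 5.01% of TAKI SDs. The SD in TAKI was 1.45 for Ciart, 1.35 for Usp2 and 2.39 for Gipc2, which encodes a PDZ protein and was at -4.18 in WT 5 and between -0.85 and 0.68 in the rest. For Saa3 it was 0.46 and for Lcn2 0.79, well under the wild-type values.

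**Figure D4:**
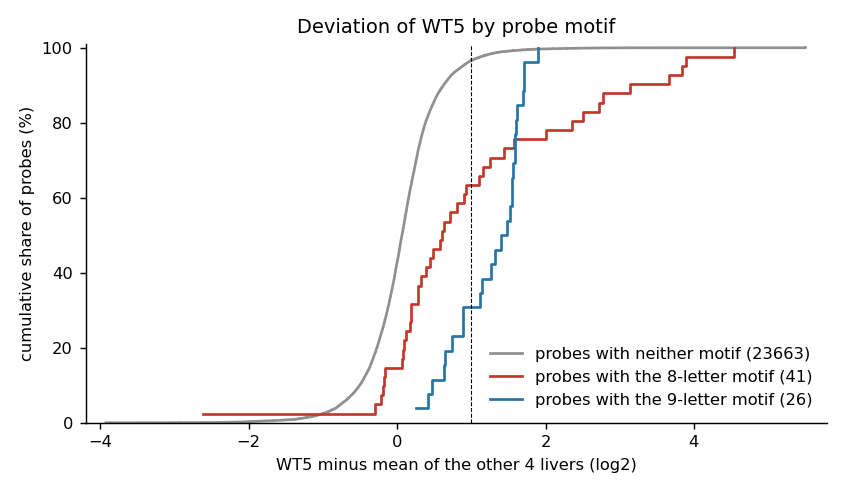
Cumulative share of probes (percent) by the difference between WT 5 and the mean of the other 4 wild-type livers (log2 units). The probes with the 8-letter word (median 0.60) and the 9-letter word (median 1.44) lie to the right of the remaining probes, and the dashed line marks a difference of 1.

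Some of the values that set WT 5 apart went with the letters of the probes. The pattern was seen in the values first, so it is a description. Of 23730 probes above background on all 5 arrays, 839 (3.54%) were at least 1 higher in WT 5 than in the mean of the others. Among the 41 probes that hold CTGTGCTG, 15 (36.6%) were, and among the 26 with GTGTGTGTG, 18 (69.2%), with differences from 0.25 to 1.90. Of the 50 probes with the reverse complement CAGCACAG and the 10 with CACACACAC, none was. Lrrc71, Dennd1b and Galnt5, each among the 25 most variable genes, were each read by such a probe. The other Lrrc71 probe was at -4.87 in WT 5 and its mean over the livers was -4.94. In Fgl1, a secreted hepatokine, the probe with GTGTGTGTG was 1.59 higher in WT 5, while the brightest probe was highest in WT 1, at 7.45, 5.30, 4.38, 5.14 and 4.77. The gene Rab11fip5, a membrane traffic adaptor, was lowest in WT 5 by its brightest probe and 4.54 higher there by the probe shown. The remaining 26 probes with CTGTGCTG were less than 1 higher in WT 5 or lower there, down to -2.62 for Olfr1153. The cause was not tested. The probe windows, with the shared letters in capitals and the difference between WT 5 and the others named first, were 4.54 for Rab11fip5 (whole probe at mm7 chr6:85366611-85366670), 3.89 for Lrrc71 (chr3:87852788-87852847), 3.67 for Dennd1b (chr1:139053466-139053525), 3.14 for Galnt5 (chr2:58046325-58046384) and 1.59 for Fgl1 (chr8:39983518-39983577).
Rab11fip5: gCTGTGCTGgaccagtcggccaagtactat
Lrrc71: atagtctcttgCTGTGCTGttccttgaaaa
Dennd1b: aacgaattctgCTGTGCTGttaaatcaggt
Galnt5: aactctcgacctgCTGTGCTGtgatagaat
Fgl1: gttttaagagGTGTGTGTGtgtgccaaata

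The remaining genes of the 25 with the highest SD were mostly set by WT 5. It was high for the transcription factor gene Dlx5 (0.39, against -4.62 to -2.76), the potassium channel gene Kcna7 (2.66, against -1.07 to 0.23) and Upp2, a uridine phosphorylase (4.12, against 0.16 to 2.09). It was low for Ly6d (2.40, against 5.84 to 6.51), Sdcbp2 (-1.72, against 1.24 to 1.69), the fatty acid elongase Elovl7 (-4.31, against -1.97 to 0.06), the chitinase-like Chil1 and Chil3, the carbonyl reductase Cbr3 and Mtmr11. Without WT 5, the SD fell from 1.66 to 0.30 for Ly6d, from 1.48 to 0.22 for Sdcbp2, from 2.07 to 0.87 for Dlx5 and from 1.82 to 0.69 for Gipc2. Cfd, the adipokine adipsin, was spread more evenly, at 4.45, 1.98, 4.67, 3.09 and 5.97, lowest in WT 2 and highest in WT 5. Of the 7 measured adipocyte markers, WT 5 was the highest liver for 2 and WT 1 for 3, against 36.9% and 16.7% of all genes. The part of adipocytes in the Cfd values was not tested. Defb19 had a probe that varied (SD 1.51) and a further probe above background on no array.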

How the data were processed

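Liver RNA of 13 mice was hybridised singly to 1-colour (Cy3) Agilent arrays, and the 5 arrays labelled WT were analysed here. The deposited files hold scanner intensity per spot from Feature Extraction 9.5 per the file headers, where the authors' processed signal is already background-subtracted. Control spots were left out, spots of a probe averaged, log2 taken and the array's 75th percentile subtracted, and the brightest probe represented a gene name. Symbols came from RefSeq tables by accession (22951 probes), symbol (6659) or synonym (3109). A gene was measured if well above background on all 5 arrays and saturated on none. The tests used limma 3.58.1 (R 4.3.3) with Benjamini-Hochberg adjustment: livers against probes of a gene, and spread against genes of like level. They were run on simulated data. For the spread test, the simulated variances of unchanged genes scattered less around the trend with level than those of the real data. That run therefore does not show how many variable genes the spread test can find here. Each liver is 1 sample on 1 array, so the first test concerns these 5 livers with their arrays and not a population. Tables and plots used Python 3.11.15, pandas 2.3.3, numpy 2.4.6 and matplotlib 3.10.9.

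Named genes were the 25 brightest, the 25 most and 15 least variable genes by SD, the genes of the 10 smallest p-values in the test against probes, Sirt1, and from each gene list the 2 measured members of highest level, the 2 of highest SD and up to 3 members above background on no array, by list order. Further members, the letters searched in probes and genes named as exceptions were chosen after their values were seen. The members and lists were chosen with earlier results of these data known. The number of arrays limits the precision. Each array is 1 mouse per the labels.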

Additional observations from a re-analysis of the deposited data

Results flagged for a closer look

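Of 135 named genes, 17 (12.6%) had a liver whose gap to the next, divided by the range of the 5 livers, exceeded the 95% critical value of 0.71. Chance gives this to about 1 in 20 genes, but many of these genes were chosen for a high SD or a small p over the same livers, so the 2 shares cannot be compared. WT 5 was the lone liver in 12 of them.

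WT 5 was far below the rest for 8 genes: Ly6d at 2.40 (next liver 5.84), Sdcbp2 at -1.72 (1.24), Chil3 at -3.22 (-0.34), Smpd3 at -0.045 (2.39), the reference gene Tubb5 at 3.37 (4.32), the cell cycle inhibitor Cdkn1a at -0.79 (0.95), the macrophage marker Cd63 at 1.72 (3.78) and the collagen Col1a1 at 0.75 (1.97). It was far above the rest for 4 genes: Galnt5 at 1.20 (-1.57), the hepatocyte transcription factor Foxa3 at 1.60 (0.83), the sperm protein gene Akap4 at -2.18 (-3.97) and Olfr741 at 0.50 (-1.95). The probes of Galnt5 and Olfr741 hold CTGTGCTG.

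WT 1 stood above the rest for Saa3 at 8.66 (next liver 4.62), Itih4 at 7.27 (5.15) and Fga at 7.09 (5.72), and below them for the glutathione transferase Gsta4 at 0.23 (1.27). For Supt16, a histone chaperone subunit among the 15 steadiest genes, WT 4 was the highest at -2.05 (-2.10), a gap of little size.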

How the results depend on the processing

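Of the 25 brightest genes, 18 were shared when probes of a gene were averaged, and 23 to 25 with the other alternatives tried for them. The count of genes with an SD of at least 1 (160) was 70 with normexp background correction, 395 with detection on at least 3 arrays, 104 on the slide of WT 1, WT 2 and WT 4, 96 by the median absolute deviation, and 63 to 251 when a liver was left out. The test of livers against probes (1285 genes) gave 2392 with median scaling (1213 shared), 195 on that slide, and 430 to 1122 with a liver left out. A variance trend with level, added after seeing the data, gave 1484. The test of spread (0 genes) gave 64 with median scaling, 56 on that slide, and 0 with any liver left out. By the looser flag for a positive and significant signal, 2239 names were above background on no array and 20276 on all 5. No paired analysis was possible because the livers form 1 group. The causes were not tested. The depth of an array is its signal over background: genes above it on some arrays only are not ranked here.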

Other observations

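Interferon-stimulated genes had a median SD of 0.27 over 27 members, and WT 5 was the lowest liver for 19, against 25.8% of all measured genes. Of 15 heat shock chaperones (median SD 0.22), WT 1 was the lowest for 11, against 18.4%. Among NRF2 and glutathione genes (median SD 0.28 over 27), Gsta2, a glutathione transferase, was lowest in WT 1, at 1.5, 4.57, 3.66, 3.33 and 3.16. Stellate cell and myofibroblast markers were lowest in WT 5 for 11 of 17, against 25.8%. Bile acid synthesis and transport genes were highest in WT 5 for 14 of 20, against 36.9%. With arrays scaled on their median, WT 3 was the highest for 11 of the 20 bile acid genes and WT 5 for 8. The shares of all genes under that scaling were 55.8% and 18.2%. WT 5 was then the lowest for 12 of the stellate cell markers and 24 of the interferon-stimulated genes, against 36.7% of all genes.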
